A study of Rattus norvegicus with 18 samples.

Results

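The genes described here are 10 receptors, adaptors and ligands through which phagocytes take up antibody-coated material and dying cells. They were chosen by their symbols alone and make up 10 of the 30735 genes in the deposited tables, and all 10 passed the filter on low counts that left 18444 genes to test. There are 6 members of the Fc receptor side, which are Fcgr1a, Fcgr2a, Fcgr2b, Fcgr3a, Fcer1g and Syk, and 4 members of the efferocytosis side, which are Axl, Mertk, Gas6 and Megf10.

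The measurements are RNA-seq libraries of cerebral cortex from adult Sprague-Dawley rats, with 1 library per rat and 6 rats in each of 3 groups. Subarachnoid hemorrhage (SAH), bleeding into the space around the brain, was induced by perforating an artery from within, and cortex was taken 1 day (SAH 1d) or 7 days (SAH 7d) later. Sham rats had the surgery without the perforation. No genetic change or drug treatment is named for any group, and neither the time of the sham samples nor the sex of the rats is given in the sources used here. The sources differ on whether the cortex of the injured side or of both sides was taken.

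Fc gamma receptors bind the constant part of IgG. Fcgr1a (high affinity), Fcgr2a and Fcgr3a are activating receptors. In rat they signal through the common gamma chain encoded by Fcer1g, whose ITAM motif recruits the tyrosine kinase Syk, whereas Fcgr2b carries an inhibitory ITIM motif of its own. Efferocytosis, the removal of apoptotic cells, uses the TAM receptor kinases Axl and Mertk, which bind phosphatidylserine on the dying cell through the bridging ligand Gas6. Megf10 is an engulfment receptor best known from astrocytes. In brain the Fc receptors mark microglia and macrophages, Mertk is carried by microglia and astrocytes, and Axl by vascular cells, glia and activated microglia.

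Fcgr2b, Fcgr3a and Fcgr2a lie near each other on rat chromosome 13, in that order in RefSeq's GRCr8 annotation, which also has the near copy Fcgr2al1 and the pseudogene Fcgr2a-ps1 just beyond Fcgr2a. RefSeq lists Fcgr3 and Fcgr3a as older names of rat Fcgr2a, and Fcgr4 and CD16-2 as older names of rat Fcgr3a. How reads shared between such copies were counted is not given in the sources used here, so the values of Fcgr2a, Fcgr2b and Fcgr3a are uncertain to that extent. The library kit does not mark strand.

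The promoter windows are shown because Spi1, which encodes the myeloid factor PU.1, was among the 3 genes most like Fcgr1a across the 18 libraries. Spi1 was not among them once the SAH 7d-5 and SAH 1d-3 libraries were dropped. The letters GAGGAA are the core of the sites that PU.1 prefers. No window of Fcgr1a itself was at hand. RefSeq promoter sequences (GRCr8) were at hand for Fcgr2a (2 start sites), Fcgr3a, Syk, Axl, Mertk and Gas6. In the 250 bases before the start, GAGGAA occurred on either strand in 1 of the 2 Fcgr2a windows, 143 and 102 bases before the start, in Fcgr3a at 54, in Syk at 62 and in Axl at 190 bases, and in neither Mertk nor Gas6. Of all 33469 windows of this length, 23.3% held it. The 4 windows with a match are given 5′ to 3′ on the gene's strand, with GAGGAA, or TTCCTC where the match is on the other strand, in capitals. They lie at chr13:85828686-85828935 (minus strand), chr13:85782386-85782635 (plus strand), chr17:12813274-12813523 (minus strand) and chr1:90424010-90424259 (minus strand), all in GRCr8.
Fcgr2a: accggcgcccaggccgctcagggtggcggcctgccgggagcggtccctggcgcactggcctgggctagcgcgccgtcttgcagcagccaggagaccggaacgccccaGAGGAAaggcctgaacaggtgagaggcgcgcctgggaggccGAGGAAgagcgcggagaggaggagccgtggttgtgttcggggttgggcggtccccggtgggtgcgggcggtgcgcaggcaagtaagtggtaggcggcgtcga
Fcgr3a: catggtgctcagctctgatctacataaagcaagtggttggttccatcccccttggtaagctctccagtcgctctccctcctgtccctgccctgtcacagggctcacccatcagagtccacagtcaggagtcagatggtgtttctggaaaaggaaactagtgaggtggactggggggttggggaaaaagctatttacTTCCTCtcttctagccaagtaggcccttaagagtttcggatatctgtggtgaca
Syk: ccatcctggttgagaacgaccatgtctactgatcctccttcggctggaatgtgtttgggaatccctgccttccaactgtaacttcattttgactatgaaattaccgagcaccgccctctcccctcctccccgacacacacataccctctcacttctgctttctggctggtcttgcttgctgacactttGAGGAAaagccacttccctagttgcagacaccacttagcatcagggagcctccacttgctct
Axl: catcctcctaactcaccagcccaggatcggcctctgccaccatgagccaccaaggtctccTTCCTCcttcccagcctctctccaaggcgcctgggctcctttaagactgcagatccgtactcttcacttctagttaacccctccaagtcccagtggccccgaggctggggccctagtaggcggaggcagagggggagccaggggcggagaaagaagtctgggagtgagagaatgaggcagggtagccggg
A match of these letters is a description of the sequence and not a binding site.

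The libraries held 27.3 to 38.3 counts each, in units of 1e+06 counts. The levels of a gene across libraries are given as counts per 1e+06 after TMM scaling (CPM), the scale of the test, and levels of different genes are compared only in FPKM, which is also scaled to transcript length. A gene is called changed at an adjusted p under 0.05 in edgeR's quasi-likelihood test (Benjamini-Hochberg over all 18444 genes), and a DEG if the log2 fold change also reached 1 in size. A pair of libraries stood apart over all genes. The highest Spearman correlation with any other library was 0.928 for SAH 7d-5 and 0.953 for SAH 1d-3, against 0.984 to 0.989 for the rest. SAH 7d-5 was the highest SAH 7d library for all 10 members, so results that involve SAH 7d are given with and without it. Neuron, astrocyte and oligodendrocyte markers were abundant in every group, as the cortex label requires, and the summed neuron markers of SAH 7d-5 were the lowest of all (2085 CPM, against 4186 CPM or more in every other library).

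**Figure D1:**
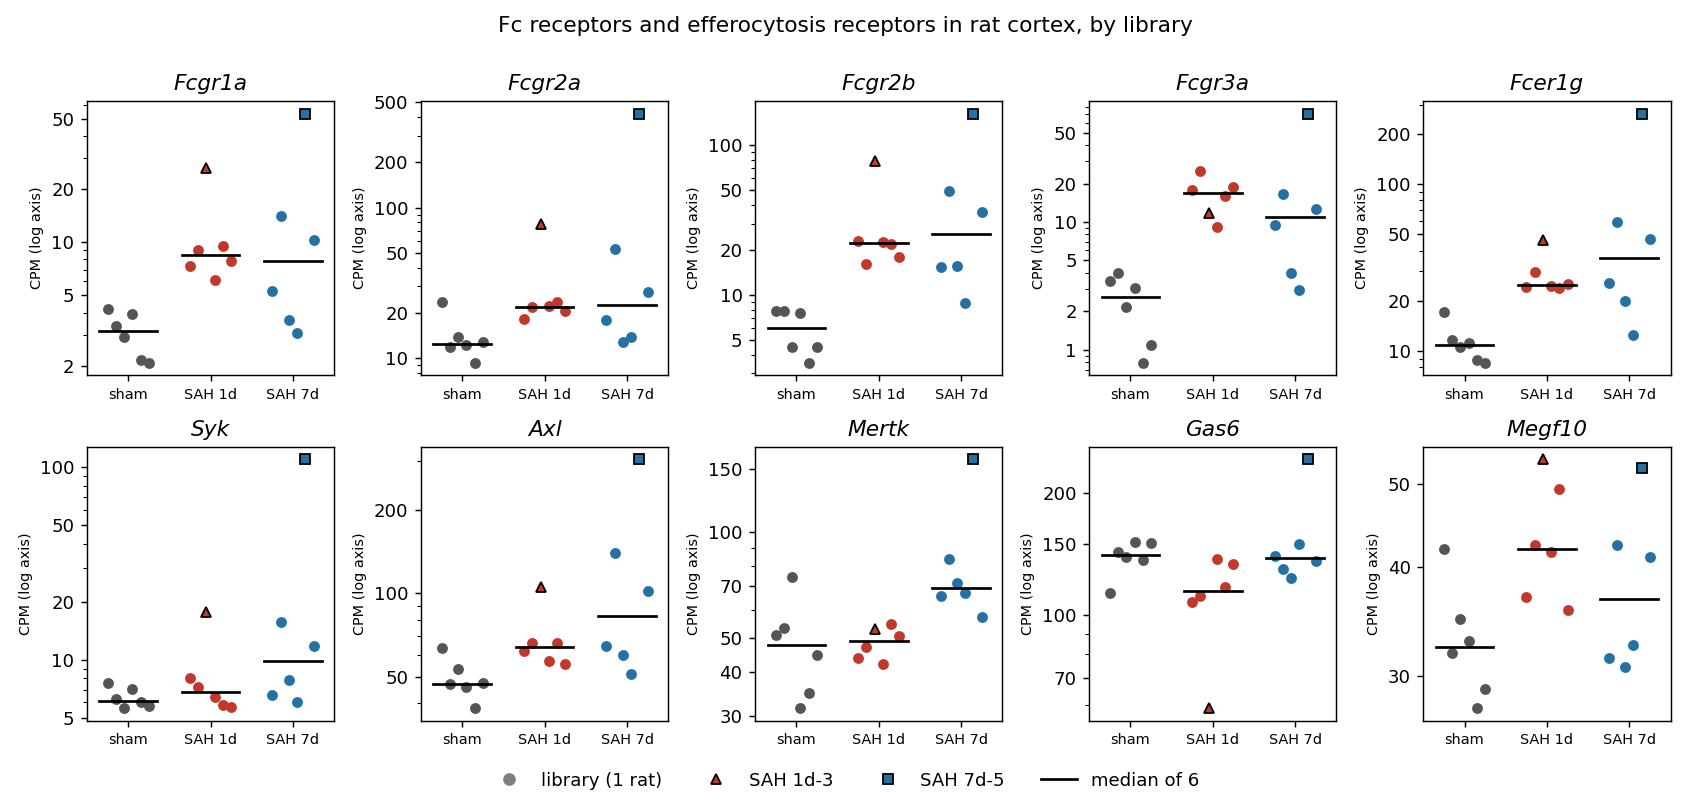
Normalized level of each of the 10 genes (CPM, log axis) in every library, by group. Points are single rats, the line is the median of 6, the triangle is SAH 1d-3 and the square is SAH 7d-5. The Fc receptor genes in the top row rose at SAH 1d, the square is the highest SAH 7d point in every panel, and Mertk at SAH 7d lies above all SAH 1d points.

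In sham cortex the bridging ligand was by far the most abundant member per length. Median FPKM was 53.3 for Gas6, 15.96 for Fcer1g, 10.4 for Axl, 9.25 for Mertk, 8.65 for Fcgr2a, 4.03 for Megf10, 2.59 for Fcgr2b, 2.34 for Fcgr1a, 1.82 for Fcgr3a and 1.10 for Syk. Neighbours in this order overlapped in range except Gas6 over Fcer1g and Fcgr2a over Megf10. At SAH 1d Fcgr2a, Fcgr2b and Fcgr3a moved up this order by FPKM, while Fcgr1a remained 8th and Syk 10th. Median FPKM was 45.7 for Gas6, 39.9 for Fcer1g, 16.7 for Fcgr2a, 15.1 for Axl, 13.5 for Fcgr3a and 11.6 for Fcgr2b, so that both Fcgr3a and Fcgr2b stood above Mertk (10.9), and below it came Fcgr1a (6.91), Megf10 (5.61) and Syk (1.30). The ranges of neighbours overlapped throughout that order except Megf10 over Syk. At SAH 7d Fcer1g had the highest median FPKM (54.3), ahead of Gas6 (51.9) and Axl (18.6), and every neighbouring pair in the order overlapped.

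SAH 1d versus sham asks which of these genes had changed 1 day after the bleed. All 4 Fc gamma receptors and their common gamma chain rose, by 2.22-fold to 6.79-fold, while the kinase Syk did not pass the test. On the efferocytosis side Axl and Megf10 rose by 1.40-fold and 1.31-fold, and Mertk and Gas6 did not pass. In all 7 of the 10 members changed, all of them higher, where 14.9% of all tested genes changed in that direction and 10.5% were lower. A fit of all 18 libraries, which takes the spread of SAH 7d into the error, called only Fcgr2b and Fcgr3a. Of the members 5 were DEGs, all higher (5.57% of all genes), and 4 had no overlap between the groups with SAH 1d higher (7.89% of all genes). The median log2 fold change was 1.60 over the 6 Fc members, 0.20 over the 4 efferocytosis members and 0.01 over all tested genes.

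Among the activating receptors Fcgr3a rose most. It stood at 0.794 CPM at the lowest, 2.61 in the median and 3.97 at the highest in sham, and at 9.16, 16.9 and 25.1 CPM in SAH 1d. All SAH 1d libraries were above all sham libraries, the highest was SAH 1d-2, and the 6.79-fold difference (log2 2.76 ± 0.38 SE, n = 6 per group) had an adjusted p of 0.00037 by edgeR. Fcgr1a, the high-affinity receptor, ranged from 2.08 to 4.16 CPM in sham (median 3.14) and from 6.12 to 26.4 CPM in SAH 1d (median 8.49). Its groups did not overlap either, with SAH 1d-3 well above the other 5 libraries, which lay at 9.50 CPM or less. Its log2 fold change was 1.84 ± 0.35 (SE, edgeR adjusted p = 0.0029), and 1.36 without SAH 1d-3.

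Fcgr2a was the most abundant activating receptor and the least changed. It ranged from 9.36 to 23.5 CPM in sham (median 12.5) and from 18.2 to 78.1 CPM in SAH 1d (median 22.0). The groups overlapped through sham-1, and 2 of the 6 SAH 1d libraries were above every sham library. Its log2 fold change was 1.15 ± 0.36 (SE, edgeR adjusted p = 0.034) and 0.61 without SAH 1d-3, where the call remained. The call was lost when sham-2, sham-3, sham-4, sham-5 or sham-6 was left out, with an adjusted p of up to 0.073.

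The inhibitory receptor rose as well. Fcgr2b ranged from 3.54 to 7.88 CPM in sham (median 6.03) and from 16.2 to 78.6 CPM in SAH 1d (median 22.3), with no overlap. Its log2 fold change was 2.33 ± 0.40 (SE, edgeR adjusted p = 0.0016), and 1.76 without SAH 1d-3. Fcer1g, the shared signaling chain, ranged from 8.52 to 17.2 CPM in sham (median 10.8) and from 23.8 to 46.1 CPM in SAH 1d (median 24.9), also with no overlap. Its log2 fold change was 1.36 ± 0.20 (SE, edgeR adjusted p = 0.00074). Syk, the kinase downstream, ranged from 5.61 to 7.56 CPM in sham and from 5.66 to 17.7 CPM in SAH 1d, with medians of 6.12 and 6.82. Only SAH 1d-3 and 1 other SAH 1d library exceeded all sham libraries, and the log2 fold change of 0.42 ± 0.26 (SE, edgeR adjusted p = 0.25) fell to 0.06 without SAH 1d-3.

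The activating and the inhibitory receptors can be set against each other per length, as the ratio of summed FPKM of Fcgr1a, Fcgr2a and Fcgr3a to that of Fcgr2b. The ratio ranged from 3.81 to 6.62 in sham (median 5.96), from 2.17 to 5.01 in SAH 1d (median 3.08) and from 1.78 to 5.26 in SAH 7d (median 2.80). SAH 1d-3 had the lowest ratio of its group and SAH 7d-5 the highest of its own, and the groups overlapped. The ratio is given as a description, with no test, and it rests on FPKM values of genes with near copies.

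**Figure D2:**
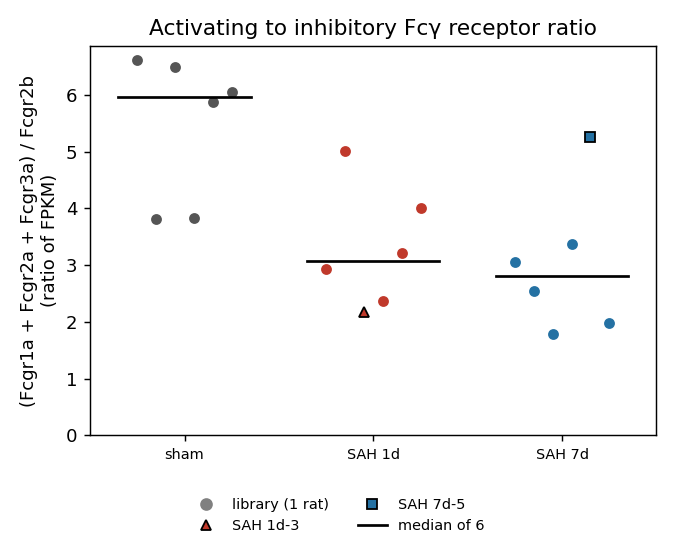
Ratio of the summed FPKM of the activating receptors Fcgr1a, Fcgr2a and Fcgr3a to the FPKM of the inhibitory receptor Fcgr2b, per library and group. Points are single rats and lines are medians of 6. In SAH 1d 4 of 6 libraries, and in SAH 7d 5 of 6, lay below the lowest sham ratio of 3.81.

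On the efferocytosis side the changes at SAH 1d were smaller. The TAM receptor Axl ranged from 38.5 to 63.2 CPM in sham (median 47.0) and from 55.4 to 105.3 CPM in SAH 1d (median 64.0). All 6 SAH 1d libraries were above the sham mean and 3 were above every sham library. The log2 fold change of Axl was 0.49 ± 0.16 (SE, edgeR adjusted p = 0.040) and 0.32 without SAH 1d-3, and the call was lost when sham-2, sham-3, sham-4, sham-5, sham-6, SAH 1d-2 or SAH 1d-5 was left out. Megf10 ranged from 27.5 to 42.0 CPM in sham (median 32.4) and from 35.7 to 53.4 CPM in SAH 1d (median 42.1). The log2 fold change of Megf10 was 0.39 ± 0.12 (SE, edgeR adjusted p = 0.034), and its call was lost without any one of the same 7 libraries, at adjusted p values of up to 0.076.

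Mertk, the other TAM receptor, did not differ detectably at SAH 1d. It ranged from 31.6 to 74.2 CPM in sham and from 42.1 to 54.9 CPM in SAH 1d, with medians of 47.8 and 48.8, and the SAH 1d libraries lay inside the sham range. Mertk had a log2 fold change of 0.01 ± 0.17 (SE, edgeR adjusted p = 0.97). Gas6, the ligand that links both receptors to phosphatidylserine, ranged from 113.4 to 151.2 CPM in sham and from 59.0 to 137.6 CPM in SAH 1d, with medians of 140.9 and 114.5. All 6 SAH 1d libraries were below the sham mean, the lowest was SAH 1d-3, and the log2 fold change of -0.32 ± 0.16 (SE) had an edgeR adjusted p of 0.16.

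**Figure D3:**
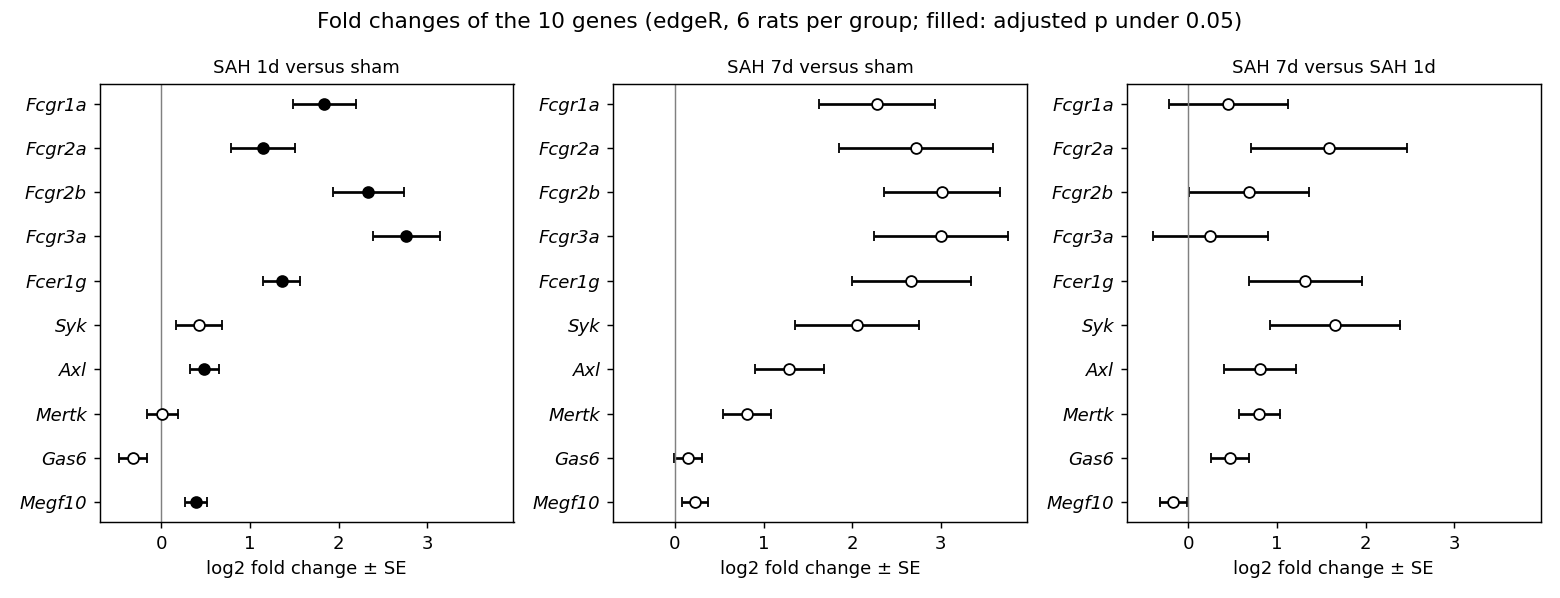
log2 fold change of each gene with its SE in the 3 comparisons (edgeR, 6 rats per group). Filled points have an adjusted p under 0.05. At SAH 1d versus sham 7 genes are filled, from 0.39 (Megf10) to 2.76 (Fcgr3a), and no point is filled in either comparison with SAH 7d.

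SAH 7d versus sham asks what was left or had developed after a week. Fold changes reached log2 3.02 ± 0.66 (SE) for Fcgr2b and 8.03-fold for Fcgr3a. Those of the 4 Fc receptor genes, Fcer1g, Syk, Axl and Mertk were larger than at SAH 1d, and that of Megf10 was smaller (0.22 against 0.39). Without SAH 7d-5, Fcgr1a (1.25), Fcgr2a (0.86), Fcgr2b (2.09) and Fcgr3a (1.92) were below their SAH 1d values, which include SAH 1d-3. Without SAH 1d-3 the SAH 1d values of Fcgr2a (0.61) and Fcgr2b (1.76) were the lower ones. Those of Fcgr1a (1.36) and Fcgr3a (2.58 or more with any library left out) were still higher. edgeR called 0 of the 10 members and 0% of all genes at adjusted p under 0.05. At an unadjusted p under 0.05, 8 members were higher, where 11.7% of all genes were, and the exceptions were Gas6 and Megf10. The Wald test of DESeq2 called 5 members higher, Fcgr1a, Fcgr2b, Fcgr3a, Fcer1g and Axl (2.27% of the genes it gave an adjusted p), and gave no adjusted p to Fcgr2a and Syk.

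Fcgr2b was the member that stayed clear of sham. It ranged from 8.90 to 162.9 CPM in SAH 7d with a median of 25.7, so the lowest SAH 7d library (SAH 7d-4) was above the highest sham library at 7.88 CPM, as in 0.797% of all genes. Its edgeR adjusted p was 0.21, and DESeq2 gave a log2 fold change of 3.02 (adjusted p = 0.00015), or 2.08 (adjusted p = 0.0012) without SAH 7d-5. Fcer1g ranged from 12.5 to 265.8 CPM with a median of 36.1, and 5 of 6 SAH 7d libraries were above every sham library. Fcgr3a ranged from 2.94 to 70.7 CPM with a median of 11.03, and 4 of 6 were. For both genes the lowest SAH 7d libraries were SAH 7d-4 and SAH 7d-3.

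Fcgr1a ranged from 3.08 to 53.8 CPM in SAH 7d (median 7.80) and Fcgr2a from 12.8 to 421.9 CPM (median 22.7). The next highest library after SAH 7d-5 held 14.1 CPM of Fcgr1a and 53.0 CPM of Fcgr2a. Syk ranged from 6.06 to 110.5 CPM, with a median of 9.82 and a next highest library at 15.6 CPM. The mean of these genes at SAH 7d was set by SAH 7d-5, while 4 of 6 libraries of Fcgr1a and Syk and 3 of 6 of Fcgr2a were above every sham library.

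Axl ranged from 51.2 to 304.2 CPM in SAH 7d (median 82.9), with all 6 libraries above the sham mean. Its log2 fold change of 1.29 ± 0.39 (SE) had an adjusted p of 0.22 by edgeR and 0.040 by DESeq2, and 0.033 by DESeq2 without SAH 7d-5. Mertk ranged from 57.3 to 160.5 CPM (median 69.3), and its log2 fold change of 0.81 ± 0.27 (SE) had an edgeR adjusted p of 0.24. All 6 SAH 7d libraries were above the sham mean of Mertk, but only 2 were above sham-3, its highest sham library. Gas6 (123.4 to 242.5 CPM) and Megf10 (30.7 to 52.1 CPM) overlapped widely with sham, with log2 fold changes of 0.15 ± 0.16 and 0.22 ± 0.15 (SE, n = 6 per group).

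Without SAH 7d-5, DESeq2 called the same 5 members higher than sham (2.52% of the genes it gave an adjusted p). Their log2 fold changes were then 1.24 for Fcgr1a, 2.08 for Fcgr2b, 1.92 for Fcgr3a, 1.54 for Fcer1g and 0.76 for Axl. edgeR called no member in any of the 12 fits that left out 1 library.

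SAH 7d versus SAH 1d is the direct test of a difference between the times. edgeR called none of the 10 members, where 0.282% of all genes changed to higher and 1.08% to lower, and 3 members were higher at an unadjusted p under 0.05, Syk, Mertk and Gas6 (6.66% of all genes). Mertk was the exception in its ranges. It lay between 42.1 and 54.9 CPM in SAH 1d and between 57.3 and 160.5 CPM in SAH 7d, so all SAH 7d libraries were above all SAH 1d libraries, as in 0.938% of all genes.

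The log2 fold change of Mertk was 0.80 ± 0.23 (SE, edgeR adjusted p = 0.12). SAH 7d-5 raised both the difference and the spread. Without it the log2 fold change was 0.50 ± 0.11 (SE) and passed, at an edgeR adjusted p of 0.016, where 3.18% of all genes changed to higher. DESeq2 on all 12 libraries also called Mertk, at an adjusted p of 0.021, as the only member it called (2.07% of all genes it gave an adjusted p).

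The Fc receptors gave no such difference. Without SAH 7d-5 the log2 fold change from SAH 1d to SAH 7d was -0.62 ± 0.47 for Fcgr1a, -0.31 ± 0.46 for Fcgr2a, -0.27 ± 0.51 for Fcgr2b and -0.86 ± 0.41 for Fcgr3a (SE, n = 5 and 6, edgeR adjusted p between 0.21 and 0.77). With it the same values were 0.45, 1.58, 0.69 and 0.25. In edgeR the direction of these 4 receptors between the times therefore turned when SAH 7d-5 was left out. Fcgr1a and Fcgr3a also turned in some other fits of all 12 libraries, such as voom (-0.38 and -1.17). Without both SAH 1d-3 and SAH 7d-5, Fcgr1a (-0.14) and Fcgr3a (-0.94) were lower, while Fcgr2a and Fcgr2b stayed higher. Fcer1g, Syk and Axl stayed higher without SAH 7d-5, at 0.17, 0.16 and 0.27, and Gas6 at 0.28, and none of them passed.

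**Figure D4:**
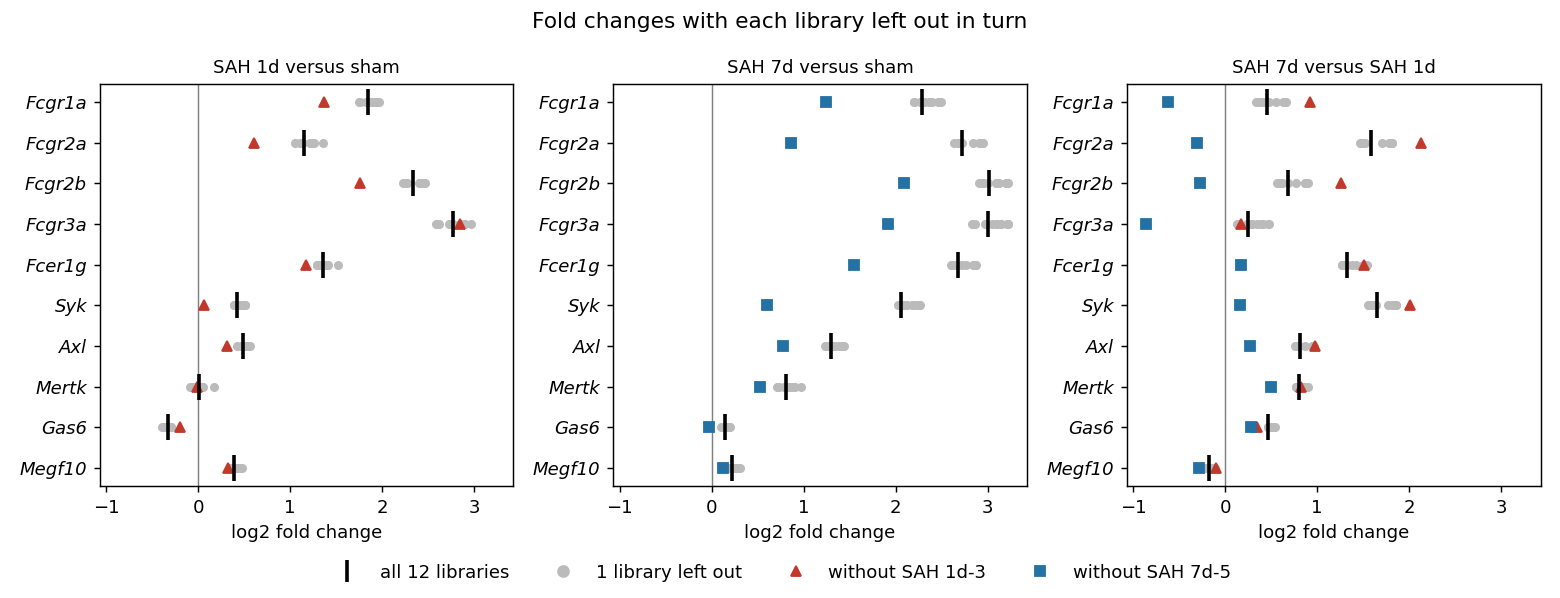
log2 fold change of each gene with all 12 libraries of a comparison (bar) and with each library left out in turn (grey), without SAH 1d-3 (triangle) and without SAH 7d-5 (square). For SAH 7d versus SAH 1d the square is below 0 for Fcgr1a, Fcgr2a, Fcgr2b, Fcgr3a and Megf10 and at 0.50 for Mertk.

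Genes that work with these receptors were counted in lists. Fc receptor signaling genes rose with the receptors at SAH 1d, although Syk itself did not. Of 20 tested genes 18 were higher (14.9% of all genes) and none was lower (10.5%). Of these genes 16 were DEGs, all higher (5.57% of all genes). The median log2 fold change was 1.41 against 0.01 over all genes. Ncf4 and Fgr rose most (3.11 ± 0.31 and 2.96 ± 0.48, SE, edgeR), the first a subunit of the phagocyte NADPH oxidase and the second a Src family kinase. The adaptor Lat2 followed (2.16 ± 0.28). Inpp5d and Pik3cd, an inhibitory phosphatase and a PI3-kinase subunit, were the 2 that did not pass, with log2 fold changes of -0.18 and -0.14. With all 18 libraries in 1 fit the list had 4 changed genes. The summed level of the list was 126.7 to 185.0 CPM in sham, 229.9 to 433.2 in SAH 1d and 135.3 to 2533 in SAH 7d, where SAH 7d-5 was highest and the next library held 441.3 CPM.

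Of 8 other ITAM adaptors and their receptors 5 were tested, and 4 of these were higher at SAH 1d (14.9% of all genes). The C-type lectins Clec4d (6.73 ± 1.51), Clec7a (5.05 ± 0.89) and Clec5a (3.34 ± 0.69, log2, SE, edgeR) rose most. Their mean sham levels were 0.032, 0.18 and 0.49 CPM. Clec4d and Clec7a passed the filter on low counts mainly through the SAH libraries, so they could hardly have come out lower. Trem2, a lipid receptor of microglia that signals through the adaptor Tyrobp, had a log2 fold change of 0.04 ± 0.15, while Tyrobp rose by 1.74 ± 0.21. Among receptors with ITIM motifs 4 of 8 were higher (14.9% of all genes), led by Lilrb4 (5.49 ± 1.12), Clec12a (2.83 ± 0.49) and Cd300a (1.69 ± 0.36). Mean sham levels of the latter were 0.074 CPM for Lilrb4, 0.47 for Clec12a and 1.41 for Cd300a. Lilrb4 too passed the filter on low counts mainly through the SAH libraries. The counts of higher genes in the ITAM and ITIM lists include such genes, so part of each count was largely fixed. Of 6 other Fc and antibody-binding receptors only the cytosolic receptor Trim21 was higher (0.88 ± 0.30), a share near that of all genes, and that list had 0 changed genes without sham-3, SAH 1d-2, SAH 1d-5 or SAH 1d-6 and 2 without sham-4. The count of ITAM genes fell to 2 by DESeq2 and to 1 with at least 10 counts required in every library. Genes near 0 in sham cannot meet that requirement. The count of ITIM genes fell to 2 with that requirement and to 1 with all 18 libraries in 1 fit.

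Of 15 other receptors and bridging molecules for apoptotic cells, 6 were higher (14.9% of all genes) and 2 lower (10.5%) at SAH 1d, the latter a share near that of all genes. With all 18 libraries in 1 fit, 5 changed. The scavenger receptors Msr1 (4.34 ± 0.61) and Olr1 (4.15 ± 0.56) and the integrin subunit Itgb3 (2.40 ± 0.66) rose most. Their mean sham levels were 0.69, 1.11 and 0.23 CPM. Itgb3, 1 of the 6, passed the filter on low counts mainly through the SAH libraries, so it could hardly have come out lower. The 2 genes that fell were the TAM receptor Tyro3 (-0.62 ± 0.12) and the bridging protein Mfge8 (-0.60 ± 0.16), whereas the TAM ligand Pros1 rose (1.04 ± 0.19). In the engulfment machinery inside the cell 3 of 10 genes were higher (14.9% of all genes) and none lower (10.5%). The higher ones were the lipid transporter Abca1 (0.59 ± 0.14), the adaptor Bcar1 (0.48 ± 0.08) and the Rac activator Dock1 (0.31 ± 0.11). Dock1 passed narrowly, at an edgeR adjusted p of 0.0497. The median log2 fold change of this list was 0.06, and 1 of its genes was changed with all 18 libraries in 1 fit, 5 by DESeq2. Tyro3, Mfge8, Pros1, Trem2, Tyrobp, Inpp5d and Pik3cd are named after their values were seen.

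At SAH 7d versus sham edgeR called 0 of the 64 tested genes of these 6 lists, while 41 were higher (11.7% of all genes) and 1 lower (3.66%) at an unadjusted p under 0.05. DESeq2 called 20, all of them higher (2.27% of the genes it gave an adjusted p) and 12 of them Fc receptor signaling genes. At SAH 7d versus SAH 1d edgeR called 1, the scavenger receptor Scarf1, which fell by 1.72 ± 0.35 (SE, log2, adjusted p = 0.033). Without SAH 7d-5 it called 8 listed genes between the times, 3 higher (3.18% of all genes) and 5 lower (5.19%). The higher ones were Tyro3 (0.52 ± 0.12), Trem2 (1.42 ± 0.40) and Fcrl2 (5.41 ± 1.33). The lower ones were Msr1 (-3.01 ± 0.66), Scarf1 (-1.97 ± 0.33), Ncf4 (-1.97 ± 0.35), Clec4d (-5.19 ± 1.47) and Bcar1 (-0.37 ± 0.09). Clec4d passed the filter mainly through SAH 1d, so its direction was largely fixed. Its mean was 3.92 CPM in SAH 1d and 0.90 CPM in SAH 7d with SAH 7d-5 included. These 8 genes are named after their values were seen.

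**Figure D5:**
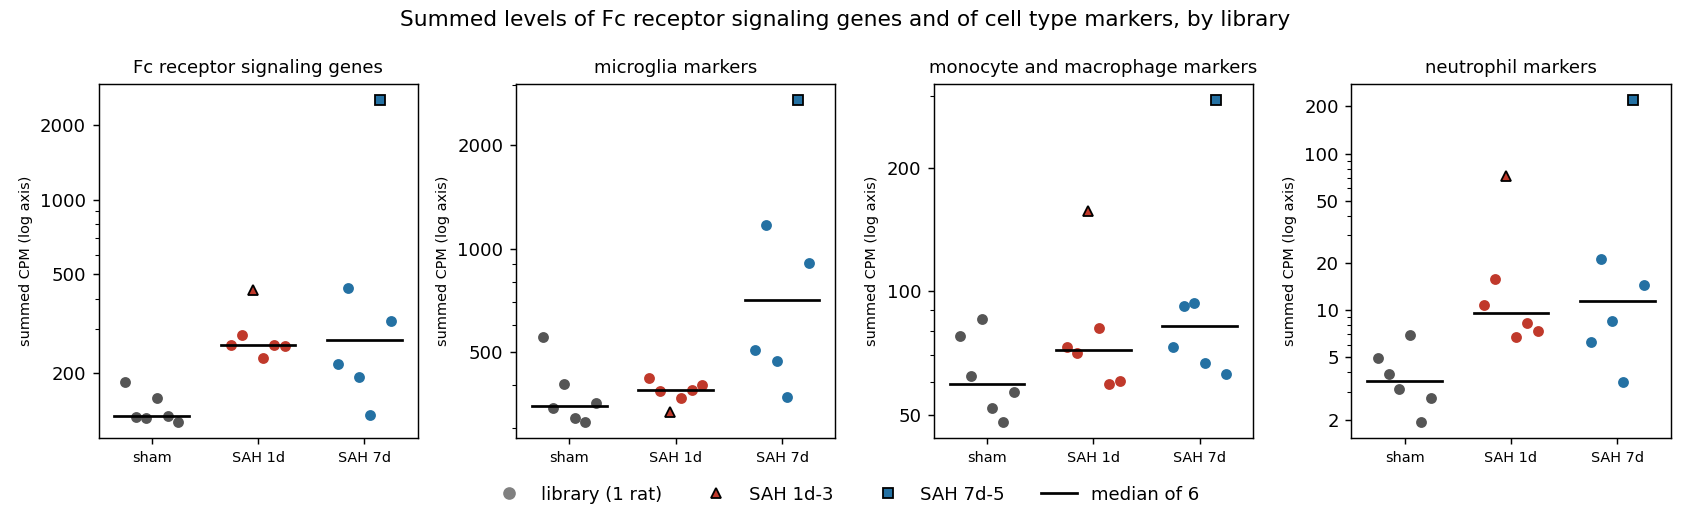
Summed level (CPM, log axis) of the Fc receptor signaling genes and of markers of microglia, of monocytes and macrophages and of neutrophils in every library. Points are single rats and lines are medians of 6. At SAH 1d the signaling genes lie above all sham libraries (229.9 CPM or more against 185.0 or less) while the microglia markers overlap with sham, and SAH 7d-5 (square) is highest in all 4 panels.

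In bulk tissue fewer cells of a type and less RNA per cell cannot be told apart, so marker levels are given beside the members. At SAH 1d no microglia marker of 8 passed as higher (14.9% of all genes) and 2 passed as lower (10.5%), P2ry12 (-1.19 ± 0.35) and P2ry13 (-1.06 ± 0.27). The median log2 fold change was -0.37, but the list was mixed. Csf1r (0.40 ± 0.16) and Cx3cr1 (0.36 ± 0.13) lay higher without passing, at edgeR adjusted p values of 0.076 and 0.065. Gpr34 (-0.81 ± 0.35) and Tmem119 (-0.71 ± 0.26) lay lower without passing. The summed level of the 8 markers was 311.5 to 550.7 CPM in sham and 333.3 to 418.2 CPM in SAH 1d. The Fc receptors thus rose in libraries whose summed microglia markers overlapped with sham. Of 6 tested monocyte and macrophage markers Cd163 and F13a1 rose (1.23 ± 0.24 and 0.70 ± 0.20), where 14.9% of all genes did. The summed level of that list was 47.9 to 85.5 CPM in sham and 59.3 to 156.7 CPM in SAH 1d. Of 8 neutrophil markers 3 passed the filter on low counts. Of these S100a9 and Csf3r rose (3.98 ± 1.13 and 1.74 ± 0.34, 14.9% of all genes), from mean sham levels of 0.40 and 2.80 CPM. The summed neutrophil markers were 1.92 to 6.92 CPM in sham and 6.69 to 71.8 CPM in SAH 1d, where the second highest library held 15.7 CPM. SAH 1d-3 was the highest SAH 1d library for both of the latter lists and the lowest for microglia markers.

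At SAH 7d the microglia markers were spread like the Fc receptors, from 370.0 to 2716 CPM with a median of 708.5 CPM. The summed monocyte and macrophage markers ranged from 62.8 to 293.0 CPM and the neutrophil markers from 3.49 to 220.5 CPM, with SAH 7d-5 highest for all of these lists. That library also had 2111 CPM of markers of meningeal fibroblasts, where the next SAH 7d library had 256.1 CPM, and 0.303 CPM of red cell markers, the lowest of all libraries. Tmem119, a microglia marker, was higher at SAH 7d than at SAH 1d (1.56 ± 0.26, SE, edgeR adjusted p = 0.012). It was the only 1 of 8 microglia markers that passed (0.282% of all genes). At an unadjusted p under 0.05 in edgeR all 8 were higher (6.66% of all genes). Their median log2 fold change was 1.53, with SAH 7d-5 included. The part of these cells in the levels of the members was not tested.

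The remaining marker lists were counted for SAH 1d versus sham. All 7 neuron markers fell (10.5% of all genes), with a median log2 fold change of -0.57. Of 8 astrocyte markers 2 rose (14.9% of all genes) and 2 fell (10.5%), counts near those shares. Gfap, the filament gene of reactive astrocytes, rose most (log2 3.003 ± 0.17, SE). Of 4 choroid plexus markers 2 rose (14.9% of all genes), with summed levels of 716 CPM in SAH 1d-4 and 1037 CPM in SAH 1d-6. The other SAH 1d libraries (2.76 to 32.6 CPM) lay within the sham range of 1.98 to 64.7 CPM. Of 4 endothelial markers 1 rose, a count near the share of all genes. None of 4 mural cell, 4 meningeal fibroblast, 5 oligodendrocyte, 3 red cell, 2 platelet, 1 T cell and 1 mast cell markers passed. B cell and NK cell markers were too low to test, with summed levels of 0.735 and 3.02 CPM at the most in SAH 1d.

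The genes whose pattern was most like each member were found by Spearman correlation of log2 CPM over the 18 libraries, which share tissue, depth and the libraries that stand apart. Fcgr1a was most like Sp140 (rho = 0.98), Spi1 (0.98) and Casp1 (0.98), Fcgr2b like the actin bundler Lcp1 (0.96), the lysosomal protease Lgmn (0.96) and Arhgap30 (0.96), and Fcgr3a like the complement gene C1qb (0.95), Phyhd1 (0.95) and Gpr84 (0.94). Fcer1g was most like Arl11 (0.98), the GTPase Rac2 (0.96) and the adaptor Lcp2 (0.96). Fcgr2a was most like Tlr6 (0.95) and Nfe2l2 (0.94). Between these came another gene (0.95), whose symbol the deposited table lists as a date.

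Syk was less closely matched, by Nfatc1 (0.89), Sh3tc1 (0.89) and Adgra3 (0.87). Axl was most like the cytoskeletal linker Tln1 (0.95), Cmtm7 (0.94) and Rpl10 (0.94), and Megf10 like Vwa5a (0.94), the kinase Ripk1 (0.93) and the protease Ctsl (0.92). Mertk was most like Rab31 (0.82), Tmtc4 (0.82) and Atp10a (0.81), and Gas6 like Washc2c (0.89), Cd34 (0.86) and Ostm1 (0.85). Within the set, Fcgr1a correlated with Fcer1g at 0.93 and with Fcgr2b at 0.92, Axl with Fcgr2a at 0.91 and with Megf10 at 0.80, but the 2 TAM receptors with each other at only 0.52. Mertk correlated with Fcgr1a at 0.28, and Gas6 with Fcgr1a at -0.40 and with Axl at -0.43.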

How the data were processed

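The authors removed adapter-containing and low-quality reads and had the clean reads aligned to Rnor_6.0 (release 95). Counts were deposited as whole numbers for each gene in each library, without normalization, and the FPKM values deposited beside them were scaled by the authors to transcript length and mapped reads. The submitters' processing notes list fastp, HISAT2 and DESeq2 1.16.1 without roles, and a mouse build that the rat gene identifiers do not match. The counting program is not given in the sources used here, so errors come from the differences between rats and no counting interval is given. Replicates were not pooled, and libraries were assigned by their deposited descriptions, each of which equals a column name.

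Genes were kept by edgeR's filterByExpr on all 18 libraries, counts were scaled by TMM, and edgeR 4.0.16 (R 4.3.3, quasi-likelihood F test, two-sided) compared 12 libraries at a time, with Benjamini-Hochberg adjustment over all 18444 genes. SE is the log2 fold change divided by the square root of F. Spearman correlations used log2 CPM with a prior count of 2. Promoters were matched by symbol. The named genes are the 10 members, the 3 genes most like each, and in each list the 3 genes with the largest change among those that passed in SAH 1d versus sham or in SAH 7d versus SAH 1d, and others are named as chosen later. The members, lists and tests were chosen with earlier results of these data known.

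Alternatives were DESeq2 size factors, the Wald test of DESeq2 1.42.0, limma 3.58.1 voom with quality weights, no filter, at least 10 counts in every library, all 18 libraries in 1 fit, the replicate number as a block, limma on log2(FPKM + 1) for genes with a mean of at least 0.5 FPKM, with a pseudocount of 0.1 and with no filter, and each library left out in turn, as well as SAH 1d-3 and SAH 7d-5 together. The DESeq2 test without SAH 7d-5 was chosen after seeing the data. Python 3.11.15 with pandas 2.3.3, numpy 2.4.6, scipy 1.17.1 and matplotlib 3.10.9 gave correlations and figures.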

Additional observations from a re-analysis of the deposited data

Results flagged for a closer look

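In 17 of the 30 groups of 6 libraries (10 genes in 3 groups), 1 library lay apart from the rest by Dixon's test, which by chance flags about 1 group in 20. SAH 7d-5 was such a high value for 9 genes: Fcgr1a at 53.8 CPM, Fcgr2a at 421.9, Fcgr2b at 162.9, Fcgr3a at 70.7, Fcer1g at 265.8, Syk at 110.5, Axl at 304.2, Mertk at 160.5 and Gas6 at 242.5 CPM. SAH 1d-3 was such a high value for 6 genes: Fcgr1a at 26.4 CPM, Fcgr2a at 78.1, Fcgr2b at 78.6, Fcer1g at 46.1, Syk at 17.7 and Axl at 105.3 CPM. In sham the high value was sham-1, for Fcgr2a at 23.5 CPM and Fcer1g at 17.2 CPM. The sets of genes are not independent, since the same libraries recur.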

How the results depend on the processing

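For SAH 1d versus sham the number of members changed (7) and of DEGs (5) was within 1.5 times under the alternatives other than leaving out single libraries, except all 18 libraries in 1 fit, which called 2 and 2 (Fcgr2b and Fcgr3a). There Fcgr1a had a log2 fold change of 1.84 (adjusted p = 0.051), Fcgr2a 1.14 (0.30), Fcer1g 1.35 (0.10), Axl 0.48 (0.34) and Megf10 0.39 (0.076), and the changed genes in all were 2462 in place of 4684. voom called Gas6 lower (-0.26, adjusted p = 0.038). With a library left out, 4 to 7 members changed and 4 to 5 were DEGs, the 4 changed without any one of sham-2 to sham-6, when Fcgr2a, Axl and Megf10 did not pass. For SAH 7d versus sham DESeq2 called 5 and 5, and 5 and 4 without SAH 7d-5, while leaving out 1 library in edgeR gave 0 to 0 for both and 0 to 3 over all genes, against 459 over all genes by DESeq2. Between the SAH times, DESeq2, voom, the fit that left out both SAH 1d-3 and SAH 7d-5, and DESeq2 without SAH 7d-5 each called 1 member, Mertk (log2 fold changes 0.80, 0.51, 0.53 and 0.51), and leaving out 1 library gave 0 to 1 and 0 to 0, and 102 to 1545 genes in all, against 252. For the comparisons with sham, leaving out both libraries is the same as leaving out 1.

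Directions turned for values that had not passed. Mertk at SAH 1d versus sham ranged from -0.085 to 0.17 with a library left out. Gas6 at SAH 7d versus sham was -0.053 by voom, -0.026 without SAH 7d-5 and -0.029 by DESeq2 without it, and ranged from -0.026 to 0.20 with a library left out. Between the SAH times, Fcgr1a and Fcgr3a turned to -0.38 and -1.17 by voom, -0.11 and -0.61 with the replicate block, -0.12 and -0.46 in limma on log2(FPKM + 1) with and without the filter, -0.19 and -0.56 with a pseudocount of 0.1, and -0.14 and -0.94 without both libraries. DESeq2 without SAH 7d-5 gave -0.61 for Fcgr1a, -0.30 for Fcgr2a, -0.26 for Fcgr2b and -0.85 for Fcgr3a. With a library left out these 4 ranged from -0.62 to 0.93, -0.31 to 2.12, -0.27 to 1.26 and -0.86 to 0.47. The cause of each shift was not tested.

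The replicate numbers did not pair the libraries, since same-numbered libraries correlated in their deviations at -0.25 to 0.20 and 0, 1 and 1 of 6 were closest to their own number. The replicate block called 5 members at SAH 1d versus sham (4 DEGs) and lost Fcgr2a (0.97, adjusted p = 0.057) and Megf10 (0.39, 0.059). The genes most like each member depended on the measure: Pearson correlation gave 5 of the same 30 genes, and leaving out both libraries gave 14. All 180 mean FPKM values with a library left out moved by less than 1 SD. That outcome is fixed, since dropping 1 of 6 values always moves their mean by less than their SD. It therefore says nothing of stability. Fcgr2a in SAH 7d had a mean of 67.1 FPKM and a median of 16.1 FPKM, with 312.8 FPKM in SAH 7d-5. By median CPM in place of FPKM, Gas6 ranked 1 in every group and Fcer1g ranked 6, 5 and 5 (sham, SAH 1d, SAH 7d) in place of 2, 2 and 1.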
